A study of Homo sapiens with 19 samples.

Results

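The late switch is the change in gene expression between 48 to 54 h and 60 to 72 h after KhES-3 cells, a human embryonic stem cell (hESC) line, were put into differentiation toward brown adipocytes (BA). It was read from 5 of the 19 one-colour Agilent arrays of the series. They were grouped by their time labels, but with earlier results of these data known, as was so for the gene lists below. The 48 and 54 h arrays formed the earlier window (n = 2 arrays) and those of 60, 66 and 72 h the later one (n = 3). All 5 arrays lay on the third slide, so no slide change falls between the windows, while the 14 arrays from 3 to 42 h lay on the other slides. By the labels, the cells had been grown on irradiated mouse embryonic fibroblasts and were then held in low-attachment dishes, whereas the study's methods describe the line as kept without feeder cells. The medium had no serum and held insulin, transferrin, selenium, ascorbic acid and monothioglycerol with the cytokines IGF-II, BMP4, VEGFA, KITLG, FLT3LG and IL-6, and every one of the 19 samples received it. No untreated culture runs beside these time points. Each time point is 1 array, so the arrays of a window are different times and not replicates, and the p-values below measure only the spread between these arrays, which holds change over time as well as error.

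Cultured cells answer an excess of metal ions, unfolded proteins, damaged DNA or a lack of amino acids through separate transcription factors. MTF1 senses zinc and drives metallothioneins, small cysteine-rich proteins that bind zinc and copper. HSF1 drives the heat shock proteins that fold other proteins, DNA damage switches on growth arrest genes such as CDKN1A, and ATF4 drives amino acid transport and synthesis in the integrated stress response. GDF15, a secreted member of the TGFB superfamily, is induced by several of these stresses. In hESCs, BMP and Nodal signals lead the cells out of pluripotency into mesoderm and extraembryonic fates.

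Promoters of the metallothionein group are shown first, because that group had the largest median difference of the gene lists examined and because metallothionein promoters are known for a repeated response element. Each is the 250 bases before the start of transcription, read from RefSeq (GRCh38.p14) 5′ to 3′ on the strand of the gene. Capitals mark the core of the metal response element, TGCACNC or TGCGCNC on either strand. MT2A is chr16:56608334-56608583 (+ strand), MT1X chr16:56682220-56682469 (+), MT1H chr16:56669564-56669813 (+), MT1B chr16:56651636-56651885 (+) and SLC30A1, which encodes a zinc exporter, chr1:211579162-211579411 (- strand).
MT2A: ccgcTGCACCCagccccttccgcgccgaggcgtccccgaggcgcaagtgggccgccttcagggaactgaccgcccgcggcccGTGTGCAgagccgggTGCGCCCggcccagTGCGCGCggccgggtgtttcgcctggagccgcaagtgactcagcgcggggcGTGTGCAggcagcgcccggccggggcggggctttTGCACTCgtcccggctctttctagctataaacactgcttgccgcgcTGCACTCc
MT1X: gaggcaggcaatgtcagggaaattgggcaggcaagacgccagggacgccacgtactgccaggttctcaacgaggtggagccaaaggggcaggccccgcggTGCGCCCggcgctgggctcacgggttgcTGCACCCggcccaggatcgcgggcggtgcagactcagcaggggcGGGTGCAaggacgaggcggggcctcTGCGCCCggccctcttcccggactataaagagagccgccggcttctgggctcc
MT1H: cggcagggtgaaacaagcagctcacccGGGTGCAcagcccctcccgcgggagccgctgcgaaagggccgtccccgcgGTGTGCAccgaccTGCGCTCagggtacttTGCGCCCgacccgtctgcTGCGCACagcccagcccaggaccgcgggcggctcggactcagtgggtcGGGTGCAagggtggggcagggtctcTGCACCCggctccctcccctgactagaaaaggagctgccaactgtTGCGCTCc
MT1B: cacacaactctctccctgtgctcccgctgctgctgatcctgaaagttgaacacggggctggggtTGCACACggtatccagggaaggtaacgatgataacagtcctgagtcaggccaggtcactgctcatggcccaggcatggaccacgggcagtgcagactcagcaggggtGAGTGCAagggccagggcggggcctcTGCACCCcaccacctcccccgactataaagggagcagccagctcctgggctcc
SLC30A1: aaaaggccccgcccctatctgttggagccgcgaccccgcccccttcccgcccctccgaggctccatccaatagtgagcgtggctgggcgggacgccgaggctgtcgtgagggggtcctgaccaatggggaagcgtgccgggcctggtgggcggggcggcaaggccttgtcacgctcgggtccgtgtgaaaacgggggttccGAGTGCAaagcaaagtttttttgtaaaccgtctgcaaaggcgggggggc
The MT1H window held 8 matches, MT2A 7, MT1X 4, MT1B 3 and SLC30A1 1. MT4, a further metallothionein that was not among the genes tested on the arrays, held 3 and is not shown. Over all 27305 promoters read in the same way, 9.73% held TGCACNC, 16.9% held TGCGCNC and 0.366% held 4 or more matches of either spelling. The spellings differ in 1 base, so no stretch on a strand counts for both. The promoter of MTF1 itself held neither. A match is a description of the sequence and not evidence of binding. MT1G, MT1M, MT1E, MT1F, MT1A, MT1L and MT3 had no entry in the promoter table.

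The 5 arrays were first checked as arrays. The 75th percentile of the processed signal was 845, 839, 776, 655 and 655 in order of time. The share of probes well above background was 62.8%, 64.7%, 61.7%, 61.2% and 53.8%, so the 72 h array, which lay in another row of the slide, detected fewest. Signals below are the processed signal scaled to a common 75th percentile of 776, and a difference is the mean log2 signal of the 3 later arrays minus that of the 2 earlier ones. The control transcripts spiked into the samples moved with the windows. Over the 8 of 10 spike-in levels detected on all 5 arrays, their mean scaled log2 signal was 12.37 and 12.29 on the earlier arrays and 12.65, 13.35 and 13.39 on the later ones. The spike-in RNA was thus 0.80 higher (1.74-fold) in the later window, by 0.32, 1.02 and 1.06 for the 60, 66 and 72 h arrays. A gene with a difference under 0.80 was therefore lower after 54 h relative to the spike-in RNA, and the difference on that scale is given beside the main results. The part of RNA input, labelling or RNA content of the cells in this shift was not tested.

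All 5 hESC markers examined (POU5F1, SOX2, NANOG, LIN28A and DNMT3B) were well above background on every array, with a summed signal of 403227 to 409357 in the earlier window and 396870 to 419294 in the later one. Of the 5 brown adipocyte markers, UCP1 and EBF2 were not well above background on any of the 5 arrays, and the number detected was 3, 3, 2, 1 and 0 in order of time. Their summed signal was 124 to 144 before and 123 to 139 after, and the lowest signal well above background was 46.6 at 72 h against 16.0 to 23.7 on the other arrays. The neuroectoderm markers PAX6 and SOX1, the fibroblast marker LUM and the blood marker CD34 were likewise not well above background. In the same sets NES, an intermediate filament gene (11355 to 16369), and CDH5 (114 to 156) and PTPRC (118 to 137) were detected on all 5 arrays. The summed signal of the 4 neuroectoderm markers was 11457 to 13117 before and 12412 to 16402 after, and that of the 5 blood and endothelium markers 315 to 331 and 310 to 351. Of the 7 fibroblast markers, 3 to 5 were detected per array, with summed signals of 23533 to 24221 before and 26665 to 42001 after. Of the 5 trophoblast markers, 3 to 5 were detected, with 8597 to 9203 before and 8190 to 11568 after. Most of this sum was KRT7, at 8379 and 8983 before and 7970, 10825 and 11208 after. The highest signal of the other trophoblast markers was 287, for GATA3 at 66 h. The fibroblast sum followed THY1, which hESCs also express, at 12218 and 12597 before and 14456, 21586 and 29448 after. COL1A1 lay between 5915 and 7117 and COL1A2 between 4974 and 5651 with overlapping windows, and DCN and PDGFRB were lower on the later arrays. In whole cultures like these, fewer cells of a type and less RNA per cell cannot be told apart.

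Over the 32279 probes that passed the background filter, which asked for detection on 2 or more of the 5 arrays, no probe passed the test of the windows (limma, Benjamini-Hochberg adjusted p under 0.05), that is 0%. The smallest adjusted p was 0.11, and 6673 probes had an unadjusted p under 0.05. The 16697 genes behind these probes, each read from its brightest probe, gave 0 calls as well (0%), with 1471 genes higher and 2024 lower at an unadjusted p under 0.05. With 5 arrays the spread is estimated on 3 residual degrees of freedom. Other settings made calls: the 5 arrays with a trended and robust prior called 355 probes higher and 379 lower, and normexp background correction with quantile normalization called 158 and 208. A fit of all 19 arrays in 7 time windows, which borrows the spread of the earlier windows on 12 residual degrees of freedom, called 1052 genes higher (6.3% of those tested) and 1651 lower (9.89%). Below, a gene is said to have risen or fallen only where it passed this 19-array fit, and list counts of such genes are read against these 2 shares. With the array median as scaling the counts were 615 and 1913, and on the spike-in scale 35 and 12280 of the 16697 genes. They also lean on single arrays: without the 48 h array they were 100 and 125, without the 54 h array 477 and 683, without the 60 h array 1709 and 2492, and without the 72 h array 552 and 911. Neighbouring arrays of a window lay 1 to 6 h apart, and 6 h apart in the later window. The borrowed spread therefore need not be that of the later window, and p-values of this fit may be too small. The median residual SD was 0.185 in this fit and in that of the 5 arrays.

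As a description free of any model, all 3 later arrays lay above both earlier ones for 3635 genes (21.8%) and below both for 4496 (26.9%). Such windows are called separate below. Of these genes, 188 (1.13%) were at least 2-fold higher and 230 (1.38%) at least 2-fold lower, or 142 and 293 with the array median as scaling. With detection required on all 5 arrays the counts were 148 higher and 100 lower, so which side is larger depends on the filter. A gene could pass the main filter on its 2 earlier arrays alone. Without the 54 h array 324 were higher and 322 lower, and without the 60 h array 311 and 380. Among the 188, the highest array was 60 h for 42 genes, 66 h for 57 and 72 h for 89, and 84 genes were already at least 2-fold higher at 60 h than at 54 h. Among the 230, the lowest array was 60 h for 31, 66 h for 62 and 72 h for 137. Some of the 230, such as CLDN14 and RTL9, were not well above background on any later array. Of the 188, 86 stood above all 16 earlier arrays and of the 230, 86 stood below all 16, against 6.13% and 9.98% of all genes, but nothing is read from these shares because the 48 and 54 h arrays that chose the genes are among the 16. On the spike-in scale 31 of the 188 stayed at least 2-fold higher, and with that scaling throughout 25 genes were at least 2-fold higher and 4805 lower with separate windows.

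**Figure D1:**
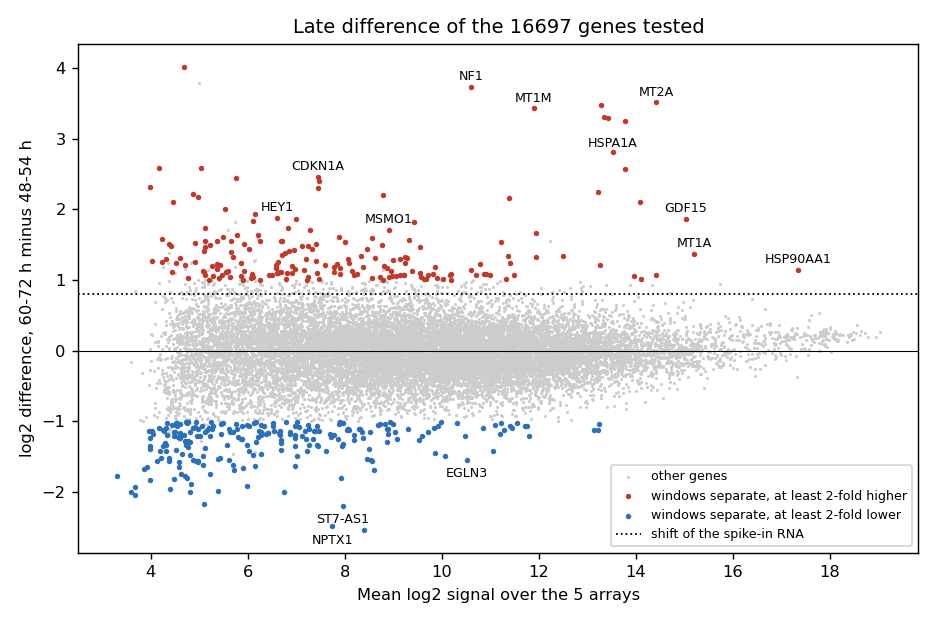
Difference between the windows (log2, y axis) against the mean log2 signal over the 5 arrays (x axis) for the 16697 genes tested, 1 point per gene. Red and blue points mark the 188 higher and 230 lower genes with separate windows and at least 2-fold differences, and MT2A, HSPA1A, CDKN1A and GDF15 lie above the dotted line at 0.80, the shift of the spike-in RNA.

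The step from 54 to 60 h was not the largest of the series. The SD of the log2 change over the tested probes was 0.295 from 48 to 54 h, the lowest of the 16 steps within a slide. It was 0.440 from 54 to 60 h, which ranked 6 of 16, 0.475 from 60 to 66 h and 0.506 from 66 to 72 h, which ranked 2. Changes of at least 2-fold were seen in 1.27% of probes between 48 and 54 h, and in 3.23% (423 probes higher and 621 lower), 4.08% and 4.90% in the next 3 steps. A quiet interval was thus followed by 3 arrays that also differed among themselves.

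MT2A, the most widely expressed human metallothionein, had a signal of 6496 and 3941 in the earlier window, and 47919, 87841 and 46396 in the later one. The windows lay far apart, with 54 h lowest and 66 h highest. The difference was 3.52 (SE 0.36, limma adjusted p = 0.110), 11.5-fold, and 2.72 on the spike-in scale, and MT2A rose in the 19-array fit (adjusted p = 7.31e-05). MT1G went from 3163 and 1720 to 22422, 38386 and 20321, a difference of 3.48 (SE 0.38). MT1M went from 1180 and 700 to 8692, 15247 and 7155, a difference of 3.43 (SE 0.39). MT1G and MT1M had the same order of arrays as MT2A.

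The other MT1 genes, which encode further isoforms, also had their lowest signal at 54 h and their highest at 66 h. MT1E differed by 3.26, the MT1L pseudogene by 3.31, MT1B by 3.29, MT1H by 2.57, MT1F by 2.16 and MT1X by 2.10. MT1A had signals of 23127 and 19742 before and 48871, 83275 and 41419 after, and its difference of 1.37 was 0.57 on the spike-in scale, where it did not pass (adjusted p = 0.0656 in the 19-array fit). These genes are near-identical copies clustered on chromosome 16, and their probes may bind each other's transcripts, so the members are not independent and the source gene of a signal is uncertain. MT3, the brain form, had signals of 6295, 6106, 6004, 6501 and 6768, and its difference of 0.05 (SE 0.12) was within the spread. MTF1 had signals between 409 and 508 and a difference of -0.11 (SE 0.14). Of the 12 tested genes of the metallothionein list, which also holds MTF1 and SLC30A1, 9 rose and 0 fell, against 6.3% and 9.89% of all genes, and the list median was 2.36 against -0.02 over all genes. Each of the 9 passed with any 1 of the 5 arrays left out.

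SLC30A1, which lowers zinc in the cell and is itself a known MTF1 target, was high on 1 array. Its signal was 337 and 222 before and 1901, 466 and 250 after, so 60 h stood 8.57-fold above 54 h while 72 h lay between the earlier arrays. With overlapping windows, the difference of 1.15 (SE 0.85, limma adjusted p = 0.464) was within the spread. The zinc genes had also been high on the first array of the series, with SLC30A1 at 1294 and MT2A at 18733 at 3 h. The 54 h signal of MT2A was the lowest of the 19 arrays, the next being 5750 at 42 h, and its 3 later signals were above all 16 earlier ones. The same held for 8 of the 12 list members, against 6.13% of all genes.

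Heat shock genes were the next group. HSPA1A, the inducible HSP70, had signals of 2044 and 6527 before and 44155, 18271 and 20832 after. It stood higher at 54 h than at 48 h, peaked at 60 h, and the windows were separate. The difference was 2.81 (SE 0.60, limma adjusted p = 0.132), or 2.01 on the spike-in scale. In the 19-array fit the adjusted p was 0.0019, and 0.0521 without the 48 h array. HSPA1B, a near-identical copy whose probe may read the same transcripts, went from 2306 and 6171 to 34321, 12403 and 13429. On the later arrays both exceeded all 16 earlier ones, and the highest HSPA1A signal between 3 and 42 h was 5172 at 4 h.

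Other chaperones differed less. HSP90AA1, the inducible HSP90, had signals of 98307 and 109282 before and 204991, 224476 and 257766 after, with 72 h highest (difference 1.14, SE 0.15, and adjusted p = 8.99e-05 in the 19-array fit). On the spike-in scale it differed by 0.34 and did not pass that fit (adjusted p = 0.156). HSPH1, a nucleotide exchange factor of HSP70, went from 5269 and 6671 to 15813, 14382 and 11540. DNAJB1, a co-chaperone, went from 1503 and 2241 to 5540, 3101 and 3318, highest at 60 h like HSPA1A. CHORDC1, an HSP90 partner, differed by 1.07, the small heat shock protein HSPB1 by 0.72 and HSPA8, the constitutive HSP70, by 0.69. Of the 20 genes of the list, 17 had separate windows and were higher, against 21.8% of all genes, 0 were lower, and 14 rose, against 6.3%. That count was 12 to 14 without the 54, 60, 66 or 72 h array but 4 without the 48 h array, where DNAJB1 (adjusted p = 0.131) and CHORDC1 (0.108) were lost. On the spike-in scale 2 rose and 3 fell, against 35 and 12280 of all 16697 genes. The list median of 0.70 became -0.10 there. In 6 of the 20 all later arrays were above the 16 earlier ones, HSP90AA1, DNAJB1 and HSPB1 among them, while HSPH1, CHORDC1 and HSPA8 had been about as high between 3 and 6 h, at up to 14372, 2378 and 40634.

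CHORDC1 is shown for its heat shock element, the binding motif of HSF1, searched as GAA, TTC and GAA with 2 bases between units on either strand. The window is chr11:90223050-90223299 (- strand, GRCh38.p14, RefSeq), and 3 overlapping matches run together in capitals.
CHORDC1: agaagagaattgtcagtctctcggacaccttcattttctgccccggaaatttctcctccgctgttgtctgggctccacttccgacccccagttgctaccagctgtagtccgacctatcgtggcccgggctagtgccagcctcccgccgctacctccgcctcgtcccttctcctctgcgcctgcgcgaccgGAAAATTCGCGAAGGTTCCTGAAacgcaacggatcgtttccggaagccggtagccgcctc
The element was present in 0.440% of all 27305 promoters and in 2 of the 18 heat shock genes with an entry, CHORDC1 and HSPA8. For the others, HSPA1A and HSP90AA1 among them, this says only that these letters are not in the window.

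GDF15 was among the 12 higher genes with the lowest p. Its signal was 15093 and 15726 before and 57041, 46463 and 66271 after. The earlier arrays were close together and all later arrays were above them and above the 14 arrays from 3 to 42 h. The difference was 1.86 (SE 0.18, limma adjusted p = 0.110), 3.63-fold, and 1.06 on the spike-in scale. GDF15 rose in the 19-array fit (adjusted p = 0.000672) and with each of the 5 arrays left out (adjusted p at most 0.0235). CDKN1A, which encodes the cell cycle inhibitor p21, had signals of 42.6 and 90.7 before and 362, 310 and 357 after, above all 16 earlier arrays. Its difference of 2.46 (SE 0.33) was 1.66 on the spike-in scale. CDKN1A rose in the 19-array fit (adjusted p = 0.00183), but not without the 48 h array (0.0547).

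Other growth arrest and DNA damage response genes were higher as well. BTG2, an antiproliferative factor, rose from 1003 and 1102 to 2560, 2185 and 2703 (difference 1.23). On the spike-in scale BTG2 differed by 0.43 and did not pass (adjusted p = 0.193 in the 19-array fit). ZMAT3, an RNA-binding protein, rose from 76.0 and 94.1 to 142, 167 and 200 (0.99), though not without the 48 h array (adjusted p = 0.0779). MDM2, a ubiquitin ligase of the same response, was at 395 and 503 before and 550, 1018 and 1108 after, and its 4 probes differed by 0.08 to 0.94. The list counted here holds targets of the transcription factor p53 and is called the DNA damage response list. DNA damage itself was not measured. On the spike-in scale 35 of all 16697 genes rose and 12280 fell. Of the 24 genes of the list, 17 were higher with separate windows and 1 lower, against 21.8% and 26.9% of all genes. In the 19-array fit 7 of the list rose, against 6.3%. Without the 48 h array 1 rose, and on the spike-in scale 1 rose and 6 fell.

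Genes of the integrated stress response were split, with more members lower than higher. ATF5, a transcription factor of the mitochondrial stress response, fell from 757 and 779 to 489, 319 and 252 (difference -1.17, SE 0.29), with the 72 h array lowest. SLC7A11, the cystine transporter, fell from 5329 and 5060 to 2922, 3175 and 3115 (-0.76, SE 0.12). Without the 48 h array neither ATF5 (adjusted p = 0.0549) nor SLC7A11 (0.0524) passed. TRIB3, a pseudokinase induced by ATF4, was at 4710 and 3476 before and 2138, 1807 and 2673 after, with separate windows. CHAC1, which degrades glutathione, differed by -0.63 and ASNS, asparagine synthetase, by -0.22, and TRIB3, CHAC1 and ASNS did not pass (adjusted p = 0.0836, 0.0592 and 0.190 in the 19-array fit). ATF4 had signals of 71740 and 72109 before and 77301 to 80740 after (0.14, SE 0.11). Of the 36 genes tested, 21 were lower with separate windows, against 26.9% of all genes, and 5 were higher, against 21.8%. In the 19-array fit 8 fell while 1 rose, against 9.89% and 6.3% of all genes. When the 48 h array was left out 2 fell. ATF3 and DDIT3, also called CHOP, which are known ATF4 targets too, were higher with separate windows, by 0.71 and 0.46, and neither passed. With DDIT4, an mTOR inhibitor, they were highest at 60 h, at 12478, 1627 and 80394, and at 66 h they stood at 7498, 1053 and 40203, still above both earlier arrays. At 72 h DDIT4 was at 23527, below its 48 h signal of 38008, so its windows overlapped. Its difference of 0.62 (SE 0.56) did not pass (adjusted p = 0.701 in the 19-array fit).

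**Figure D2:**
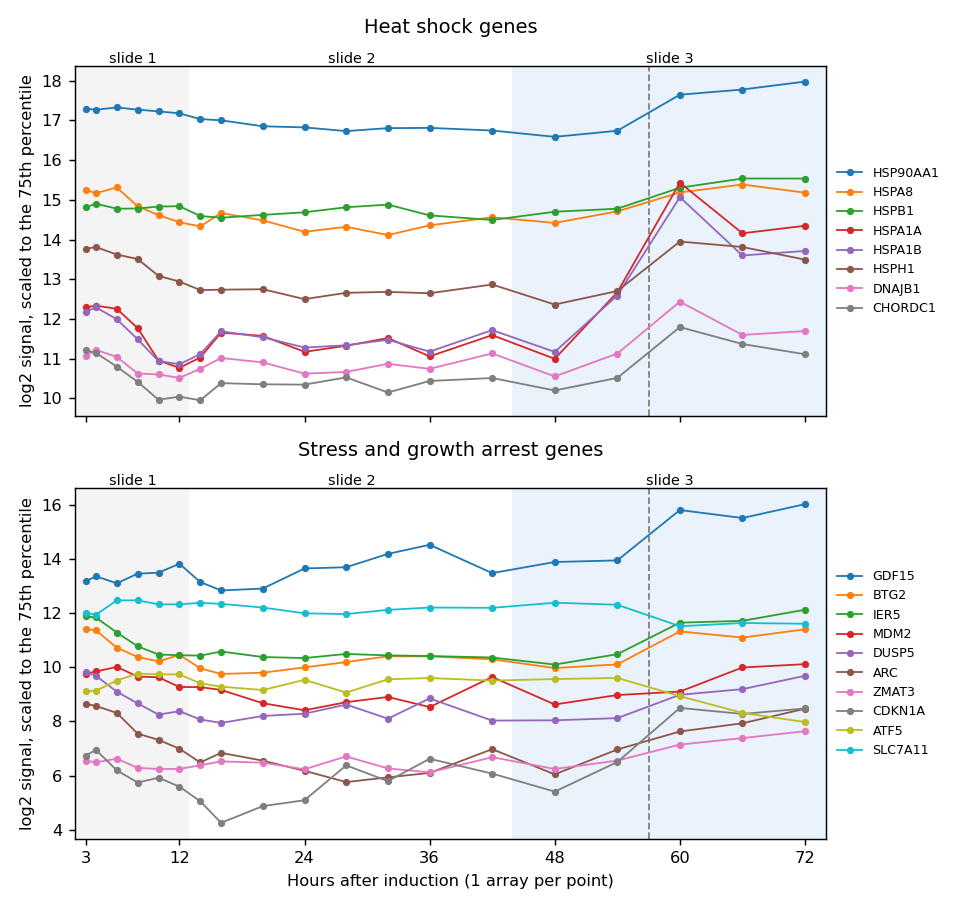
Log2 signal scaled to the 75th percentile (y axis) against hours after induction (x axis) for 8 heat shock genes (upper panel) and 10 stress and growth arrest genes (lower panel), 1 array per point, slides shaded and a dashed line between the windows. HSPA1A and HSPA1B are already higher at 54 than at 48 h and peak at 60 h, GDF15 and CDKN1A stand higher on all 3 later arrays, and ATF5 and SLC7A11 stand lower.

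Immediate early genes, which are switched on within minutes of a stimulus, were also higher. FOS was at 358 and 493 before and at 1487, 676 and 765 after (difference 1.12), with 60 h highest. DUSP5, a phosphatase that inactivates ERK, rose from 264 and 279 to 507, 585 and 824 (1.20). IER5, a regulator of HSF1, rose from 1097 and 1429 to 3202, 3355 and 4456 (1.54), also with each array left out. ARC rose from 66.2 and 125 to 198, 244 and 355 (1.50), with 72 h highest like DUSP5 and IER5. JUNB differed by 0.90 and did not pass, and EGR1 was at 8018 at 60 h but at 2556 at 72 h, below both earlier arrays. Of the 25 list members tested, 17 were higher with separate windows and 0 lower, against 21.8% and 26.9% of all genes, and 6 rose, against 6.3%. The list does not hold IER5 and ARC, which were chosen after their values were seen. When the 48 h array was left out 0 of the list rose (adjusted p = 0.113 for DUSP5), nor did ARC (0.176), and on the spike-in scale 0 of the list rose. FOS passed with only 1 of the 5 arrays left out. At 3 h these genes had been high too, with DUSP5 at 918, IER5 at 3766 and ARC at 402.

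The genes with at least 2-fold differences were also set against the first arrays. Of the 188 higher genes, 60 (31.9%) were also at least 2-fold higher at 3 and 4 h than at 48 and 54 h, against 700 of all 16697 genes (4.19%). Of the 230 lower genes, 75 (32.6%) were at least 2-fold lower at 3 and 4 h than at 48 and 54 h, against 1194 (7.15%). Both comparisons share the 48 and 54 h arrays that chose the genes, so an excess is built in, and the first arrays are on another slide. These shares are a description from which nothing is read. UBFD1, which carries a ubiquitin-like domain, rose from 1527 and 1707 to 3760, 4199 and 3512 and had been at 3375 at 3 h. NUDT3, a diphosphoinositol phosphatase, rose from 341 and 378 to 720, 769 and 778, below its 3 h signal of 1038. EIF4A2, a translation initiation helicase, rose from 13217 and 14721 to 27497, 29711 and 30409, above its highest earlier signal of 24159 at 4 h. All 3 passed with each of the 5 arrays left out.

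Some cholesterol synthesis genes formed a burst at 60 h. MSMO1, a sterol oxidase, had signals of 208 and 265 before and 1657, 804 and 338 after. INSIG1, which holds back the sterol regulator SREBP, showed 343 and 380, then 1836, 685 and 571. Both had separate windows, with differences of 1.71 and 1.31 in which the 60 h array weighed most. STARD4, a sterol carrier, rose by 1.05 and SC5D, a late enzyme of the pathway, by 1.11. MSMO1 rose as well but lost the call with 3 of the 5 arrays left out, and INSIG1 did not pass (adjusted p = 0.0532 in the 19-array fit). Of 27 list members, 8 were higher with separate windows and 4 lower, against 21.8% and 26.9% of all genes, and 4 rose and 1 fell, or 0 rose without the 48 h array.

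Genes of BMP response and early mesoderm were highest on the 66 h array. HAND1, a transcription factor of extraembryonic mesoderm, was at 74.9 and 75 before and at 102, 571 and 159 after. GATA3, a trophoblast and amnion factor, was at 62.5 and 80.6, then 92.2, 287 and 135. MSX1, a BMP target, was at 31.9 and 45.0, then 49.9, 197 and 56.9. In each the windows were separate, and the 66 h array stood far above the other 4. MESP1, a factor of early mesoderm, was at 153 and 150, then 218, 567 and 267, and it passed the 19-array fit (adjusted p = 0.0379) but lost the call with 4 of the 5 arrays left out. HAND1 (adjusted p = 0.0637), GATA3 (0.0711) and MSX1 (0.365) did not pass. NODAL went from 630 and 520 to 497, 2049 and 977, and LEFTY1, its target and inhibitor, from 2872 and 1958 to 1176, 4805 and 2792. Neither had separate windows. LEFTY2 differed by -0.66 (SE 0.32, limma adjusted p = 0.305 on the 5 arrays) and did not pass the 19-array fit (adjusted p = 0.0748).

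Direct BMP targets of the ID family, inhibitors of differentiation factors, were steadier across the later arrays. ID1 had signals of 64076 and 63620 before and 102915, 109578 and 106722 after, and ID2 of 8108 and 8321, then 17826, 14149 and 11749. The windows were separate, but the differences of 0.74 and 0.81 were about the size of the spike-in shift, leaving -0.06 and 0.01 on that scale. ID3 differed by 0.54 and did not pass. HEY1, a Notch and BMP target, rose from 36.0 and 55.5 to 169, 199 and 130 (1.87, or 1.07 on the spike-in scale), below its 3 h signal of 617, and did not pass without the 48 h array (adjusted p = 0.0712). Of 22 BMP response genes tested, 11 were higher with separate windows and 1 lower, and 5 rose, 0 of them without the 48 h array. Of the 22 mesoderm and endoderm genes 8 were higher and 0 lower, and of the 17 trophoblast and amnion genes 7 and 0. The BMP, mesoderm and trophoblast counts are read against 21.8% higher, 26.9% lower and 6.3% risen among all genes. Relative to 54 h, the medians of the BMP, mesoderm and trophoblast lists were 0.17, 0.07 and 0.05 on the 60 h array. They were 0.78, 0.94 and 0.69 on the 66 h array, and 0.32, 0.20 and 0.32 on the 72 h array.

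**Figure D3:**
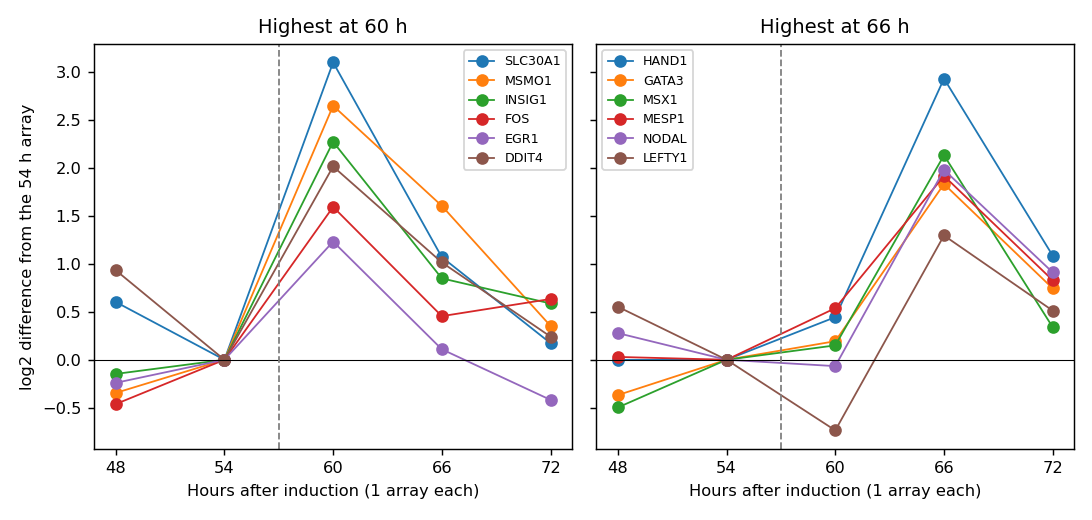
Log2 difference from the 54 h array (y axis) against hours after induction (x axis) for 6 genes that were highest at 60 h (left) and 6 that were highest at 66 h (right), 1 array per point and a dashed line between the windows. SLC30A1 and MSMO1 peak at 60 h and are close to their earlier level by 72 h, while HAND1 peaks at 66 h and LEFTY1 is lowest at 60 h just before its peak.

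Pluripotency factors parted. NANOG had signals of 18164 and 19512 before and 32973, 34846 and 32087 after, a difference of 0.82 (SE 0.12, limma adjusted p = 0.116) that was 0.02 on the spike-in scale. It rose in the 19-array fit (adjusted p = 0.00303, but 0.0628 without the 48 h array), to levels above all 16 earlier arrays. POU5F1 stayed between 235718 and 253513 (0.07, SE 0.11). SOX2 was between 17634 and 25610, lowest at 72 h (-0.20, SE 0.17), and KLF4 was at 374 and 377 before and 342, 360 and 248 after. LIN28A differed by -0.13 and DNMT3B by -0.26. Of the 30 pluripotency genes tested 7 were higher and 7 lower with separate windows, near the background of 21.8% and 26.9%. In the 19-array fit 4 of the list rose and 0 fell, against 6.3% and 9.89% of all genes. Without the 48 h array 0 rose, and on the spike-in scale 0 rose and 20 fell, against 35 and 12280 of all 16697 genes. IL6, whose product is also in the medium, was between 145 and 283 with overlapping windows. CITED1 did not pass the background filter.

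Among the genes that went down, ST7-AS1, an antisense transcript, fell from 747 and 513 to 175, 108 and 131 (difference -2.19, SE 0.27). JAKMIP2-AS1, also antisense, fell from 1180 and 796 to 228, 109 and 188 (-2.53, SE 0.36). The later signals of both were below all 16 earlier arrays. NPTX1, a neuronal pentraxin known as an early neural gene in hESCs, was at 1026 and 349 before and at 194, 81.5 and 77.7 after (-2.48, SE 0.60), so that much of its change lay inside the earlier window. SOX21, a neural transcription factor, fell from 721 and 608 to 304, 211 and 187, and EGLN3, a prolyl hydroxylase of the oxygen response, from 3212 and 2409 to 1123, 974 and 798. With the 48 h array left out, NPTX1 (adjusted p = 0.111) and SOX21 (0.0682) did not pass, while EGLN3 did (0.0102). OTX2, a further neural and pluripotency factor, was at 327 and 254, then 167, 303 and 138. Of the 14 neuroectoderm genes tested, 5 were higher and 2 lower with separate windows, and of the 31 genes of hypoxia and glycolysis 7 and 8, against 21.8% and 26.9% of all genes.

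The other 11 of the 12 lower genes with the lowest p were ZNF425, PSMG3-AS1, ZNRF1, TTC32, ITCH, TMEM147-AS1, SLC5A7, SHISA6, ANKRD7, TTN-AS1 and GSAP, with differences from -0.99 to -1.69. PSMG3-AS1, for example, was at 755 and 814, then 252, 282 and 204. All fell in the 19-array fit, but ZNRF1, SHISA6, ANKRD7 and GSAP lost the call without the 48 h array (adjusted p from 0.0620 to 0.129) and SLC5A7 with any 1 of the 5 arrays left out. The probes of SHISA6 and of TTN-AS1 disagreed in sign, and SHISA6 was not well above background on any later array, at least 1.77-fold lower. Of the 12 higher genes by the same rule, ADCY10P1, a pseudogene of an adenylyl cyclase, was not well above background at 48 or 54 h. Its signals were 71.4, 63.4 and 67.4 on the later arrays, at least 3.78-fold higher. BEND7 differed by 1.03 on one probe and by -0.11 on the other, and lost the call with any 1 of the 5 arrays left out.

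Large families shifted by small amounts. Of 79 ribosomal protein genes, 74 were higher with separate windows and 1 lower, against 21.8% and 26.9% of all genes, but the median difference was 0.21. In the 19-array fit 8 rose, against 6.3% of all genes, and 0 rose without the 48 h array. It was 0.02 after quantile normalization and -0.59 on the spike-in scale, and with the array median as the scaling 0 rose, so the direction of this family depends on the scaling. RPL10, of the large subunit, went from 142539 and 145494 to 164155, 193088 and 185878, while the differences of its 4 probes ran from -0.09 to 0.33. RPL27A was the exception, at 140 and 121 before and 90.0, 82.2 and 64.6 after. It was read from 1 probe, far dimmer than that of RPL10, and whether that probe reports the transcript was not tested. Neither RPL10 (adjusted p = 0.202) nor RPL27A (0.293) passed without the 48 h array.

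Cell cycle and proteasome genes were lower. Of 44 genes of DNA replication, 25 were lower and 3 higher with separate windows, against 26.9% and 21.8% of all genes. Of the 44, 10 fell, against 9.89% of all genes. E2F1, which drives S phase genes, fell from 1300 and 1212 to 818, 765 and 786, and GINS1, of the replicative helicase, from 11884 and 11196 to 8290, 6299 and 7132, both below all 16 earlier arrays. Of 35 mitosis genes, 17 were lower and 0 higher, against 26.9% and 21.8% of all genes, and 6 fell, against 9.89%. The mitosis list differed mainly at 72 h, with medians relative to 54 h of -0.03, -0.12 and -0.58 on the later arrays. CCNB1, the mitotic cyclin, was at 17739 and 16716 before and 14394, 13508 and 9852 after, and PLK1, a mitotic kinase, at 3182 and 3055, then 2848, 1993 and 1678. Of 33 proteasome genes, 21 were lower and 2 higher, against 26.9% and 21.8% of all genes, with a median of -0.16. Of the 33, 6 fell, against 9.89%. PSMA4, of the core particle, went from 12114 and 10943 to 9747, 9197 and 7085. Without the 48 h array 1 replication gene, 0 mitosis genes and 0 proteasome genes fell, and GINS1 (adjusted p = 0.0580) and CCNB1 (0.207) were among those lost. On the spike-in scale 40, 33 and 33 genes of these lists fell, as did 12280 of all 16697 genes.

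Other lists were mixed, and their counts are read against 21.8% higher and 26.9% lower with separate windows and 6.3% risen among all genes. On the spike-in scale 35 of all 16697 genes rose and 12280 fell. Of 24 genes of the unfolded protein response, which restores folding in the endoplasmic reticulum, 4 were higher and 3 lower with separate windows. HSPA5, its main chaperone, was at 2569 and 2806, then 3039, 1400 and 1336. Of 27 lysosome and autophagy genes 9 were higher and 7 lower, and 7 rose, among them FLCN, a regulator of lysosomal signalling (1.09), and the autophagy receptor SQSTM1 (0.70, lost with 3 of the 5 arrays left out). When the 48 h array was left out 2 of this list rose, and on the spike-in scale 0 rose and 20 fell. Of 27 apoptosis genes 10 were higher and 5 lower. TNFRSF10A and TNFRSF10B, death receptors, rose by 1.01 and 0.67, while CASP9, an initiator caspase, fell by 0.67, calls that the list lost when the 48 h array was left out. Of 52 replication-dependent histone genes 18 were higher and 1 lower, with a median of 0.55 relative to 54 h on the 66 h array and of 0.07 and 0.06 on the arrays beside it.

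Metabolic and signalling lists had small median differences, the largest being 0.235 for the IL-6 response. Of 75 nuclear genes of the respiratory chain 23 were higher and 14 lower with separate windows, with a median difference of 0.03. Of 27 NRF2 targets 7 were higher and 5 lower, of 18 genes of fatty acid synthesis 7 and 3, of 20 tRNA synthetases 4 and 9, of 17 IL-6 response genes 7 and 0, and of 20 Nodal pathway genes 1 and 4. In the 19-array fit 3 NRF2 targets rose and 1 fell, and 2 IL-6 response genes rose and 0 fell, against 6.3% and 9.89% of all genes. Without the 48 h array 1 NRF2 target and 0 IL-6 response genes rose. Of the 13 tested genes of brown fat regulation 4 were higher and 1 lower with separate windows, with 0 called by the 19-array fit in either direction. Of 12 blood and endothelial genes 4 and 3, of 10 fibroblast genes 1 and 3, and of 16 housekeeping genes 5 and 6 were higher and lower. All of these counts of separate windows are read against 21.8% and 26.9% of all genes.

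Single arrays set a few of the largest values. The brightest NF1 probe read 338 and 315 before, 252233 at 60 h, and 543 and 600 on the last arrays, while the differences of the 5 NF1 probes ran from -0.04 to 3.73. LRRC25, a leucine-rich repeat gene, was at 34.7 and 29.6 before and 52.9, 48.3 and 590 after, and SLC10A7, of the bile acid transporter family, at 36.3 and 27.7, then 68.5, 67.9 and 387. Without the 72 h array their differences of 1.84 and 1.94 were 0.659 and 1.105, and the other SLC10A7 probe differed by -0.345. Such values have no second array at the same hour to set against them.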

How the data were processed

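Total RNA was labelled with Cy3 and hybridised to one-colour Agilent arrays, 1 per time point. The authors deposited, per the file headers, processed spot intensities from Agilent Feature Extraction (10.10.1.1 in the submitters' processing notes), after background subtraction and spatial correction, with flags for spots well above background. They also deposited an intensity table, which equals the processed signal times 1 factor per array. Here spots of a probe were averaged, 0.524% of spots on the 5 arrays were left out as outliers, and none was saturated. Log2 of the deposited processed signal was centred on the 75th percentile of each array. Probes were matched to symbols by accession (28174 of 50683 probes, 20503 symbols). Windows were compared with limma 3.58.1 in R 4.3.3 (lmFit, eBayes, two-sided, Benjamini-Hochberg), and tables were made in Python 3.11.15. The scripts were tested on simulated data. A bound uses the lowest signal well above background of each array. The number of arrays limits the precision.

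The named genes were the 12 higher and 12 lower genes by lowest p (all missed the threshold), genes named by the study, and list members, some of which are not reported here. Since no gene passed, most list examples were chosen after their values were seen. The arrays and gene lists were chosen with earlier results of these data known. The alternatives were another scaling, background correction, filter, variance prior, probe rule or design, and leaving out each array. The fit of all 19 arrays under other scalings and left-out arrays, the metal response element search and the 2-fold counts under other settings were added after seeing the data. Normexp (offset 50) ran on median pixel signals.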

Additional observations from a re-analysis of the deposited data

How the results depend on the processing

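No paired analysis was possible because nothing links an array of one window to an array of the other, and no hour was measured more than once. Of the 100 named genes, 85 kept the direction of their difference in every setting and 93 in all but spike-in scaling.

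No probe or gene was called with the array median as scaling, quantile normalization, the deposited table, no background filter, a slope on hours, the mean of all probes of a gene, or a 2-fold minimum. Spike-in scaling called 62 probes higher and 7769 lower (30 and 4150 genes), normexp with quantile normalization 158 and 208 (104 and 109), detection on all 5 arrays 20 and 11 (8 and 5), the 19-array fit 1900 and 2705 (1052 and 1651) and the trended, robust prior 355 and 379 (222 and 209). Leaving out 1 array gave 0 to 1 calls of probes and of genes.

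In the 19-array fit, the array median called 615 genes higher and 1913 lower, spike-in scaling 35 and 12280, and leaving out 1 array gave 100 to 1709 and 125 to 2492. Separate windows with at least 2-fold differences numbered 25 higher and 4805 lower on the spike-in scale. They numbered 148 higher and 100 lower with detection on all 5 arrays. With 1 array left out they numbered 169 to 324 higher and 159 to 380 lower. The causes were not tested.

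On the spike-in scale the median of every list moved by the same -0.80. It became -0.616 for apoptosis, -0.876 for blood and endothelium, -0.221 for BMP response, -0.784 for brown fat regulators, -0.686 for cholesterol synthesis, -0.995 for DNA replication, -0.674 for fatty acid synthesis, -0.728 for fibroblast, -0.097 for heat shock, -0.787 for housekeeping, -0.849 for hypoxia, -0.565 for IL-6 response, -0.266 for immediate early genes, -1.082 for integrated stress response, -0.736 for lysosomes, -1.094 for mitosis, -0.86 for the Nodal pathway, -0.672 for NRF2 targets, -0.362 for the DNA damage response, -0.85 for pluripotency, -0.48 for mesoderm and endoderm, -0.962 for proteasome, -0.603 for histones, -0.773 for the respiratory chain, -0.589 for ribosomal proteins, -0.757 for genes named by the study, -0.868 for tRNA synthetases, -0.399 for trophoblast and amnion and -0.848 for unfolded protein response. The ribosomal median was 0.019 with quantile normalization and 0.017 with normexp.

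Differences that changed sign on the spike-in scale were those of POU5F1 (-0.731), LEFTY1 (-0.72), IL6 (-0.784), MT3 (-0.751), HSPA8 (-0.114), HSPB1 (-0.08), ATF3 (-0.093), ATF4 (-0.662), DDIT3 (-0.342), DDIT4 (-0.177), EGR1 (-0.373), ID1 (-0.064), ID3 (-0.261), RPL10 (-0.474) and SQSTM1 (-0.098). With the array median POU5F1 (-0.013), LEFTY1 (-0.002), IL6 (-0.066) and MT3 (-0.033) did, with quantile normalization POU5F1 (-0.157), IL6 (-0.024) and ATF4 (-0.024), with normexp POU5F1 (-0.098) and IL6 (-0.013), and as a slope on hours DDIT4 (-0.092) and EGR1 (-0.061). With 1 array left out, LEFTY1 ranged from -0.388 (without 66 h) to 0.627, with -0.195 without 54 h, IL6 from -0.249 (without 66 h) to 0.234, with -0.071 without 54 h, and EGR1 from -0.034 (without 60 h) to 0.791.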
